A study of Mus musculus with 23 samples.

Results

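The tubulin isotype genes described here are 10 genes, 6 encoding beta-tubulins (Tubb5, Tubb4b, Tubb6, Tubb2a, Tubb2b and Tubb3) and 4 encoding alpha-tubulins (Tuba1a, Tuba1b, Tuba1c and Tuba4a), out of 54347 genes in the deposited count table. Each matched 1 Ensembl identifier by symbol, and all 10 passed the filter on low counts. They were chosen by symbol with their levels in the 4 groups, and the differences between them, already known. Their values are therefore given as a description, without p-values, and nothing is read from which of them passed in a fit. The cells came from the labial cervical loop, the epithelial stem cell niche of the mouse lower incisor, at postnatal day 2. They were dissociated and sorted by a green fluorescent reporter under the endogenous Sox2 promoter, carried by positive and negative cells alike, and sequenced with Smart-seq2, a full-length cDNA protocol that does not keep the strand. Batch A gave 6 libraries of Sox2-negative and 6 of Sox2-positive cells, and batch B gave 4 and 7. Each batch had its own day and its own mice, and the labels give no treatment or further allele and do not say whether libraries of a group came from separate animals. P-values therefore measure the spread between these libraries, which may be technical.

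Microtubules are hollow polymers of alpha- and beta-tubulin pairs that build the mitotic spindle, the core of cilia and the tracks for transport in polarized cells. The isotypes share most of their protein and differ mainly in a short acidic tail at the carboxyl end, where motors and associated proteins bind and where enzymes add or remove amino acids. Tubb5 and Tuba1b are widely expressed, while Tubb3 and Tubb2b are best known from neurons and Tubb4b from cilia. In the incisor, stem cells of the cervical loop give rise to ameloblasts, tall polarized cells that secrete enamel.

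The coding sequences show how close these genes are, which matters because counts were assigned from sequence. The last 90 coding bases of 6 members follow, 5 beta genes and Tuba4a, read from GENCODE M21 transcripts (GRCm38), 5′ to 3′ on the coding strand and ending in the stop codon. Capitals mark the part after the longest word shared within the family, which is 17 bases long over the 5 beta genes shown and 11 over the 4 alpha genes.
Tubb5, chr17:35834982-35835071, minus strand: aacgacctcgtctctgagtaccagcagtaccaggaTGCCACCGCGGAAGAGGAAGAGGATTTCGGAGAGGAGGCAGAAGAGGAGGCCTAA
Tubb4b, chr2:25222308-25222397, minus strand: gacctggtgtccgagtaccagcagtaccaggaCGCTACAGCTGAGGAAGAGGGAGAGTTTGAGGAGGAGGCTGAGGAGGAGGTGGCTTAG
Tubb2a, chr13:34074468-34074557, minus strand: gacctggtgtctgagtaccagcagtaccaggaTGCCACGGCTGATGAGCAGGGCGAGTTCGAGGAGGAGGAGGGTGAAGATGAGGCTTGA
Tubb2b, chr13:34127471-34127560, minus strand: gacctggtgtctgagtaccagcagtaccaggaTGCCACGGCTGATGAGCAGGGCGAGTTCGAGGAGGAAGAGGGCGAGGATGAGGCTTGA
Tubb3, chr8:123421593-123421682, plus strand: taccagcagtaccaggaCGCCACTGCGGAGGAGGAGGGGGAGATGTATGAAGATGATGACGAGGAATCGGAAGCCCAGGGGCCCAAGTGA
Tuba4a, chr1:75215622-75215711, minus strand: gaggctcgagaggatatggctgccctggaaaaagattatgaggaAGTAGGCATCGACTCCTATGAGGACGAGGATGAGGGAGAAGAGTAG

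The tail part ran to 73 bases in Tubb3, the longest of the 5 beta genes shown, and to 55 in Tubb5. Tubb2a and Tubb2b differed at 3 of the 90 positions. Over the whole coding sequence, identity was 96.5% for Tubb2a and Tubb2b, 98.3% for Tuba1a and Tuba1b, 97.9% for Tuba1b and Tuba1c, and 97.1% for Tuba1a and Tuba1c. Tubb3 was 81.4% identical to Tubb5.

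Shared sequence limits how surely a count belongs to 1 gene. Of the 31-base words in a gene's annotated transcripts, 78.6% in Tuba1a, 78.7% in Tuba1b, 55.3% in Tuba1c, 56.4% in Tubb2a, 43.1% in Tubb2b and 53.0% in Tubb4b also occur in transcripts of other genes. The shares were 3.21% for Tubb3, 3.50% for Tubb5 and 3.24% for Tubb6. The separate values within Tuba1a, Tuba1b and Tuba1c, and within Tubb2a and Tubb2b, are therefore uncertain. The 6 pseudogenes that share the most words with Tubb2a, Tubb4b and the Tuba1 genes together held at most 1.88 CPM in any library (CPM, counts over TMM-scaled library totals, as edgeR gives them). Tuba4a shared 35.6% of its words with Stk16, a kinase gene that overlaps it on the opposite strand, and 38.4% with any gene, so its counts cannot be told apart from those of Stk16 with certainty.

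Library totals ran from 2305778 to 9541443 estimated counts, so the smallest level that 3 counts can show lay between 0.314 and 1.30 CPM (counting error only). Sox2 itself lay between 2.55 and 20.4 CPM in Sox2-positive libraries and at most 1.19 CPM in Sox2-negative ones. All 10 epithelial markers on the list used here were higher in Sox2-positive libraries of each batch, and all 9 mesenchymal markers were lower (edgeR adjusted p under 0.05). Sox2-negative libraries also held endothelial, leukocyte and erythroid RNA, with summed erythroid markers at 983 to 1175 CPM in batch A and 53603 to 62032 CPM in batch B. In sorted bulk samples, fewer cells of a type and less RNA per cell cannot be told apart.

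The summed level of the 10 genes was 4344 ± 174 CPM in batch A Sox2-negative (SD over n = 6 libraries), 5810 ± 201.2 CPM in batch A Sox2-positive (n = 6), 4117 ± 92.3 CPM in batch B Sox2-negative (n = 4) and 4585 ± 170 CPM in batch B Sox2-positive cells (n = 7). Sox2-positive libraries lay above Sox2-negative ones without overlap in both batches. The summed beta members were at 2420 ± 58.1, 3077 ± 167, 2071 ± 98.9 and 2296 ± 123 CPM in the same order. The alpha members were at 1925 ± 142, 2733 ± 75.1, 2046 ± 113 and 2289 ± 57.9 CPM.

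**Figure D1:**
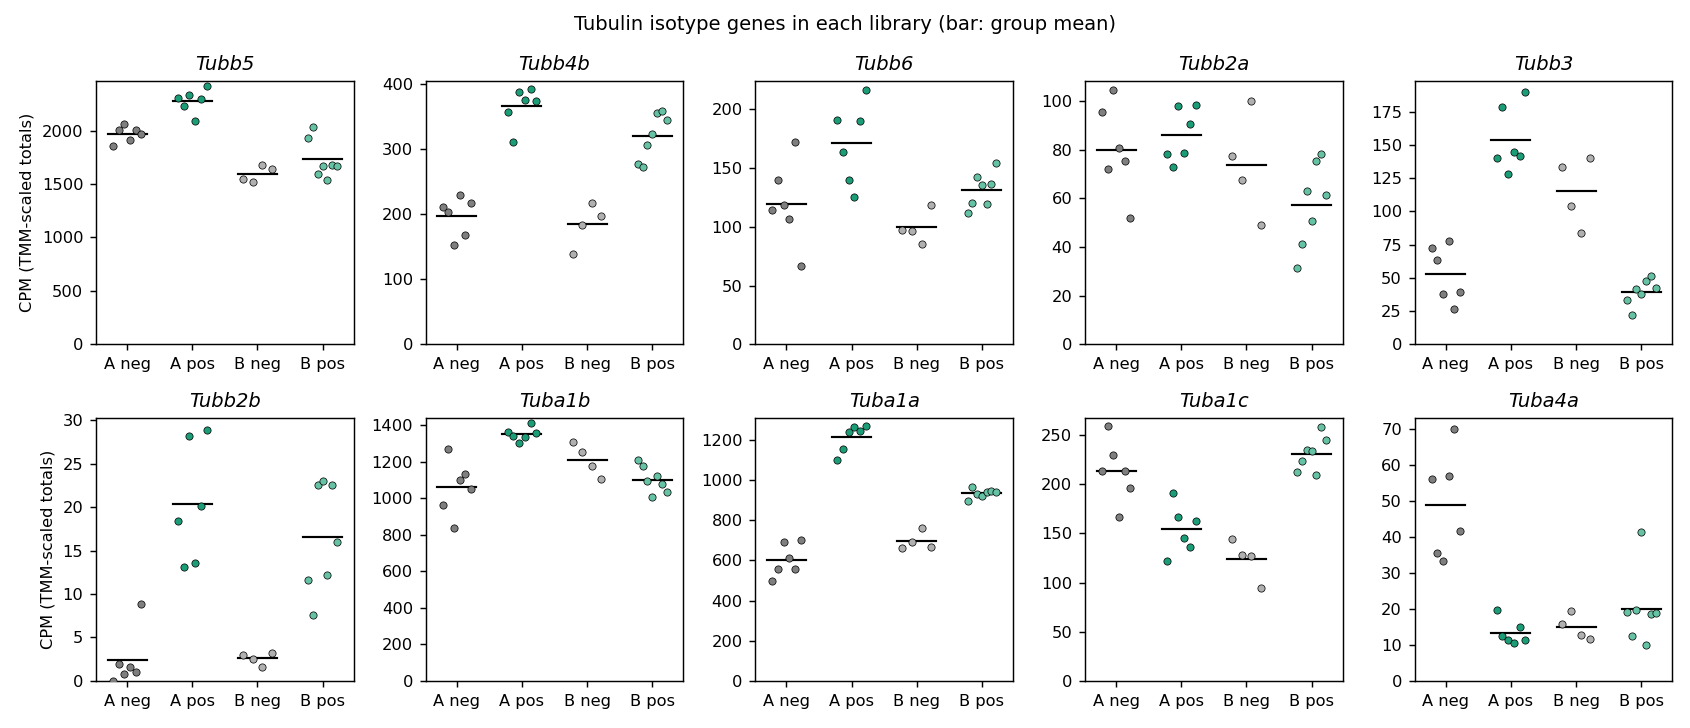
CPM of each tubulin gene in each of the 23 libraries, by batch and population (neg, Sox2-negative; pos, Sox2-positive), on linear axes from 0, with bars at group means. Tubb4b, Tubb2b and Tuba1a lie higher in Sox2-positive libraries of both batches, while Tubb3 lies higher in batch A (128 to 190 against 26.7 to 77.7 CPM) and lower in batch B (21.8 to 51.2 against 83.7 to 140 CPM).

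Levels of different genes were compared per length, as CPM per kb of the median annotated protein-coding transcript. The shares depend on that length. Tubb5 has 2 annotated protein-coding transcripts, with a median of 1705.5 bases and a longest of 2649. A longer length would lower its value per kb, so its shares below hold for the median length. Tubb5 led the beta genes in every group, with 80.3% ± 2.15 of the summed beta members in batch A Sox2-negative cells (SD, n = 6) and 72.6% ± 0.963 in batch A Sox2-positive libraries. Its share was 75.4% ± 0.627 in batch B Sox2-negative (n = 4) and 74.3% ± 4.20 in batch B Sox2-positive libraries (n = 7). Tubb4b had the next highest mean in every group, at 8.60% ± 1.42, 12.5% ± 1.08, 9.25% ± 1.37 and 14.7% ± 2.13. The order below it differed by group. In batch A Sox2-positive libraries Tubb3 came next at 6.31% ± 0.930, overlapping with Tubb6 at 5.25% ± 0.851. The place of Tubb3 above Tubb6 depends on the length used. Tubb3 has 2 annotated protein-coding transcripts, with a median of 1322 bases and a longest of 1868, and Tubb6 has 1 of 1758. In batch B Sox2-positive libraries Tubb3 came after Tubb6 and Tubb2a at 2.20% ± 0.599, overlapping per kb with Tubb2a at 2.64% ± 0.861. In Sox2-negative libraries of both batches the ranges per kb of neighbours in the order overlapped from Tubb4b down to the gene above Tubb2b. Genes further apart could be separate there: Tubb4b lay above Tubb2a and Tubb3 in batch A, and above Tubb6 and Tubb2a in batch B. Tubb2b was last in all groups, at 0.0765% ± 0.107 and 0.0962% ± 0.0266 in Sox2-negative and 0.501% ± 0.149 and 0.561% ± 0.224 in Sox2-positive libraries of batches A and B.

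Among alpha genes the order was Tuba1b, Tuba1a, Tuba1c and Tuba4a in every group. Per kb of the median length, no gene's range overlapped with that of the next. The gap between Tuba1b and Tuba1a depends on that length, which for Tuba1b is 1743 bases, against 1875 over all its exons. How counts divide among the Tuba1 genes is also uncertain, as given above. Tuba1a, the isotype best known from migrating neurons, took 30.3% ± 4.73 of the summed alpha members in batch A Sox2-negative and 43.6% ± 1.59 in batch A Sox2-positive libraries. In batch B its share was 33.3% ± 2.43 and 40.2% ± 1.22. The share of Tuba1b was 54.7% ± 4.40 and 50.3% ± 1.54 for batch A and 59.8% ± 1.92 and 48.9% ± 2.26 for batch B. The share of Tuba1c was 9.73% ± 1.49 and 5.04% ± 0.814 for batch A, and 5.34% ± 0.642 and 9.02% ± 0.772 for batch B, so the population with the higher share was not the same in the batches. Tuba4a has 7 annotated protein-coding transcripts with a median of 845 bases and a longest of 2840. Its share in batch A Sox2-negative libraries was 5.25% ± 1.57 with the median length and 1.63% with the longest.

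**Figure D2:**
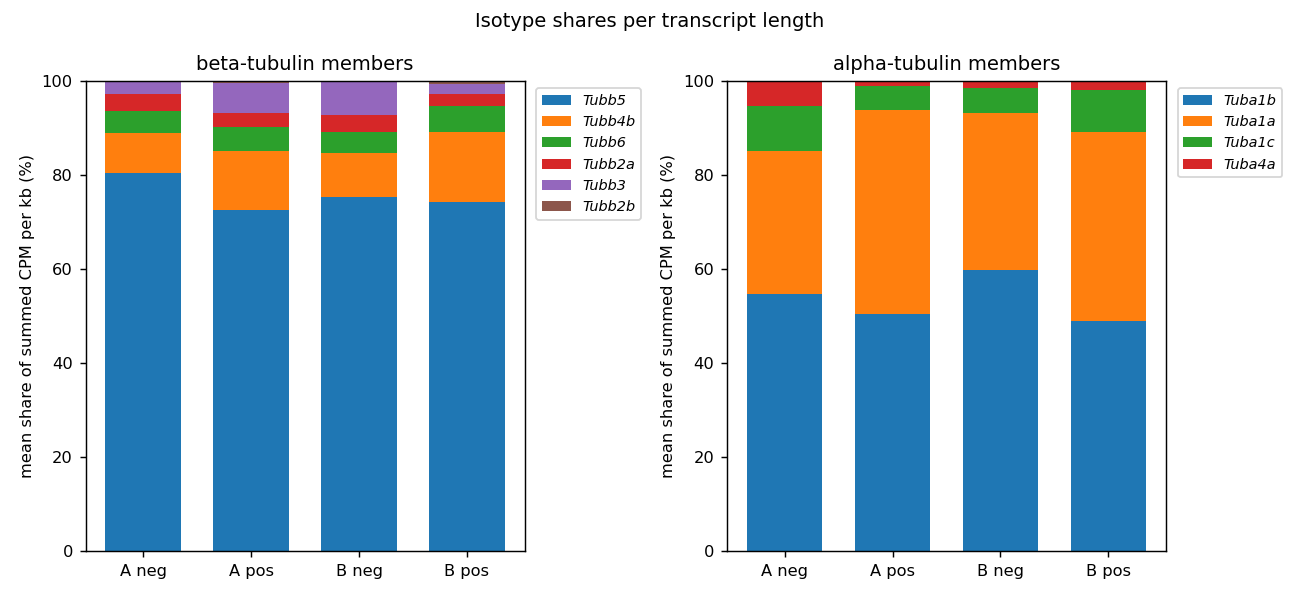
Mean share of each isotype in the summed CPM per kb of the beta members (left) and the alpha members (right), in percent, for the 4 groups. With the median transcript length, Tubb5 takes 72.6% to 80.3% of the beta members. Tuba1a takes a larger share of the alpha members in Sox2-positive than in Sox2-negative libraries of both batches.

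The population difference in each batch asks which isotypes set the Sox2-positive cells apart. In edgeR's fit across all genes, 6 of the 10 members passed an adjusted p of 0.05 over both batches, against 57.5% of all genes tested. Of these, 5 were higher in Sox2-positive cells, against 24.9% of all genes, and 1, Tuba4a, lower, against 32.5%. No member was called lower with total-count scaling, or when batch A Sox2-negative library 1 or any of the 6 batch A Sox2-positive libraries was left out. The log2 difference of Tuba4a stayed below 0 in all 30 alternatives (-1.13 to -0.73). It was -1.87 for batch A and 0.50 for batch B, so the value over both stands for neither batch. In batch A alone 9 passed against 43.4% of all genes, with 7 higher against 19.3% and 2 lower against 24.2%. In batch B alone 6 passed against 54.7%, with 5 higher against 27.1% and 1 lower against 27.6%. The groups did not overlap in CPM for 7 members in batch A, against 28.1% of all genes, and for 5 in batch B, against 38.1%. Since the members were named with these values known, nothing is read from the counts. The median log2 difference of the members was 0.44 for batch A and 0.49 for batch B, against -0.04 and 0.01 over all genes tested.

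Tubb5, the main beta isotype of dividing cells, ranged in batch A from 1856 to 2059 CPM in Sox2-negative libraries (median 1986) and from 2089 to 2420 CPM in Sox2-positive libraries (median 2301). In batch B the Sox2-negative libraries lay at 1544, 1523, 1676 and 1640 CPM. The Sox2-positive libraries of batch B ranged from 1542 to 2034 CPM, with a median of 1671. The groups were separate in batch A by a small margin and overlapped in batch B. The log2 difference (Sox2-positive minus Sox2-negative) was 0.22 (SE 0.05) for batch A and 0.19 (SE 0.09) for batch B. Batch B Sox2-positive libraries 1 and 2, at 1932 and 2034 CPM, stood above the other 5 (1542 to 1681 CPM). Without the batch B libraries numbered 1 and 2 in both populations, the difference in batch B was 0.01. Summed epithelial markers were also apart, at 5111 and 4904 CPM in Sox2-positive libraries 1 and 2 and 7206 to 7769 CPM in the other 5. Batch B Sox2-positive means and SDs thus span libraries that differ in these markers, whose part in the Tubb5 difference was not tested.

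Tubb4b, a component of ciliary axonemes that is also widely expressed, was higher in Sox2-positive libraries of both batches. In batch A it ranged from 152 to 229 CPM in Sox2-negative libraries (median 207) and from 311 to 392 CPM in Sox2-positive libraries (median 375). In batch B it lay at 139, 183, 217 and 197 CPM in Sox2-negative libraries and ranged from 272 to 358 CPM in Sox2-positive libraries (median 323). No Sox2-positive library overlapped with a Sox2-negative one of its batch. The log2 difference was 0.90 (SE 0.11) for batch A and 0.86 (SE 0.14) for batch B. The interaction, the batch B difference minus that of batch A in a separate fit over all 4 groups, was -0.10 (SE 0.17). Because it has its own filter and scaling, it need not equal the difference of the values within batches. Summed markers of ciliated cells were low throughout, at 0.427 to 16.9 CPM over 5 genes in batch A Sox2-negative, 0.717 to 10.2 in batch A Sox2-positive, 1.87 to 8.10 in batch B Sox2-negative and 3.95 to 12.4 CPM in batch B Sox2-positive libraries. Rsph1, a radial spoke gene of motile cilia, had no count in the last 3 of these groups. Tekt1 had none in batch A Sox2-negative libraries, and Dnah5 none in batch B Sox2-positive ones. Over both batches 2 of the 5 were tested, with 1 higher in Sox2-positive cells and none lower (edgeR adjusted p under 0.05). In batch B 1 of 2 tested was higher and none lower, and in batch A the 1 tested was not called. Over all genes tested, 24.9% were higher over both batches and 27.1% in batch B. Their part in the Tubb4b difference was not tested.

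Tubb2b, a beta isotype of neuronal precursors, showed the largest log2 difference among the members in each batch, from a low base. It ranged from 13.1 to 28.8 CPM in batch A Sox2-positive libraries (median 19.3) and from 7.63 to 23.03 CPM in batch B Sox2-positive libraries (median 15.99). In batch A Sox2-negative libraries it ranged from 0 to 8.87 CPM (median 1.31), and in batch B they lay at 2.97, 2.55, 1.63 and 3.23 CPM. The groups did not overlap in either batch. The log2 difference was 3.10 (SE 0.75) for batch A and 2.73 (SE 0.41) for batch B. Batch A Sox2-negative library 6 held the 8.87 CPM, and without it the batch A difference was 4.22. Tubb2a, its close copy, had means of 80.1 ± 18.6 and 86.2 ± 10.97 CPM for batch A and 73.6 ± 21.2 and 57.4 ± 17.3 CPM for batch B (Sox2-negative, then Sox2-positive), with overlapping groups. The sum of both genes also overlapped, at 82.5 ± 16.01 and 107 ± 17.6 CPM for batch A and 76.2 ± 20.6 and 73.9 ± 20.96 CPM for batch B.

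Tubb2b was the only member whose group means on the log2 scale spanned more than 2, at 3.50. Tubb3 (1.99) and Tuba4a (1.83) fell just under that bound, so no similar genes were sought for them. Profiles over the 23 libraries were compared by root mean square difference of centred log2 CPM among 11091 genes. The 3 most similar to Tubb2b were Lgalsl (0.66), Pkp3 (0.70) and Vwa2 (0.70). Pkp3 encodes plakophilin 3, a desmosomal plaque protein of epithelia.

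Tubb6, a beta isotype found at lower level in many tissues, was at 120 ± 35.0 and 171 ± 34.6 CPM for batch A and at 99.5 ± 13.9 and 132 ± 14.9 CPM for batch B (Sox2-negative, then Sox2-positive). The groups overlapped in both batches. The log2 difference was 0.52 (SE 0.20) for batch A and 0.48 (SE 0.13) for batch B.

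Tubb3, the beta isotype used as a marker of neurons, ran in opposite directions in the batches. In batch A it ranged from 26.7 to 77.7 CPM in Sox2-negative libraries (median 51.3) and from 128 to 190 CPM in Sox2-positive libraries (median 143). In batch B it lay at 133, 104, 83.7 and 140 CPM in Sox2-negative libraries and ranged from 21.8 to 51.2 CPM in Sox2-positive libraries (median 41.6). Groups did not overlap in either batch, with Sox2-positive libraries on top in batch A and at the bottom in batch B. The log2 difference was 1.55 (SE 0.24) for batch A and -1.49 (SE 0.21) for batch B. Over both batches it was 0.02 (SE 0.36), a value that stands for neither batch. The interaction in the fit over all 4 groups was -3.10 (SE 0.33).

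Tubb3 differed between batches within each population as well. Sox2-positive libraries of batch B lay below those of batch A without overlap (log2 difference -1.97, SE 0.22), and Sox2-negative libraries of batch B lay above those of batch A without overlap (1.13, SE 0.25). Gm20388, an annotated gene that overlaps Tubb3 on the same strand, did not run the same way, with 49.2 ± 21.9 and 44.1 ± 18.5 CPM for batch A and 45.4 ± 10.9 and 67.9 ± 12.97 CPM for batch B (Sox2-negative, then Sox2-positive). Tubb3 shares few 31-base words with any other gene, as given above. The part of Gm20388 or of shared sequence in the Tubb3 difference was not tested.

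Marker lists moved beside Tubb3 in part. The 8 genes of Schwann and neural crest glia, among them Sox10 and Erbb3, summed to 1173 to 1401 CPM in batch A Sox2-positive libraries and 23.1 to 69.2 CPM in batch A Sox2-negative ones, and all 8 were higher in the former (edgeR adjusted p under 0.05). In batch B they summed to 72.4 to 103 CPM in Sox2-positive and 43.1 to 67.3 CPM in Sox2-negative libraries. There 4 of the 6 genes tested were higher in Sox2-positive libraries and none lower. Over all genes tested, 19.3% were higher in batch A and 27.1% in batch B. Foxd3 had no count in Sox2-negative libraries of either batch, and Sox10 and Cdh19 had none in those of batch B. Between batches, batch B Sox2-positive cells had all 8 below those of batch A, against 5.54% of all genes. Within Sox2-negative cells none was called in either direction by edgeR, against 11.2% of all genes. Their part in the Tubb3 difference was not tested.

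The 10 neuronal markers summed to 273 to 356 CPM in Sox2-positive and 27.3 to 71.1 CPM in Sox2-negative libraries of batch A, and to 274 to 364 CPM and 23.5 to 53.5 CPM in batch B. Most of the sum in Sox2-positive libraries was Isl1, a transcription factor also known in dental epithelium, with 242 ± 29.5 CPM for batch A and 314 ± 35.9 CPM for batch B. Of the 3 neuronal markers tested in batch A, 2 were higher and none lower, against 19.3% and 24.2% of all genes. Of 4 tested in batch B, 1 was higher and 1 lower, against 27.1% and 27.6%. Nefl, a neurofilament gene, had no count in Sox2-positive libraries of either batch. Elavl3, a neuronal RNA-binding protein, had none in the batch A Sox2-negative group and in both batch B groups. Gap43, a growth cone gene, stood at 26.0 ± 12.2 and 57.0 ± 10.5 CPM for batch A and at 19.6 ± 9.21 and 3.50 ± 1.40 CPM for batch B (Sox2-negative, then Sox2-positive). The 5 skeletal muscle markers summed to 180 to 343 CPM in Sox2-positive libraries of batch B, and to at most 12.6, 5.58 and 13.8 CPM in batch A Sox2-negative, batch A Sox2-positive and batch B Sox2-negative libraries. The part of neuronal and muscle markers in the Tubb3 difference was not tested.

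**Figure D3:**
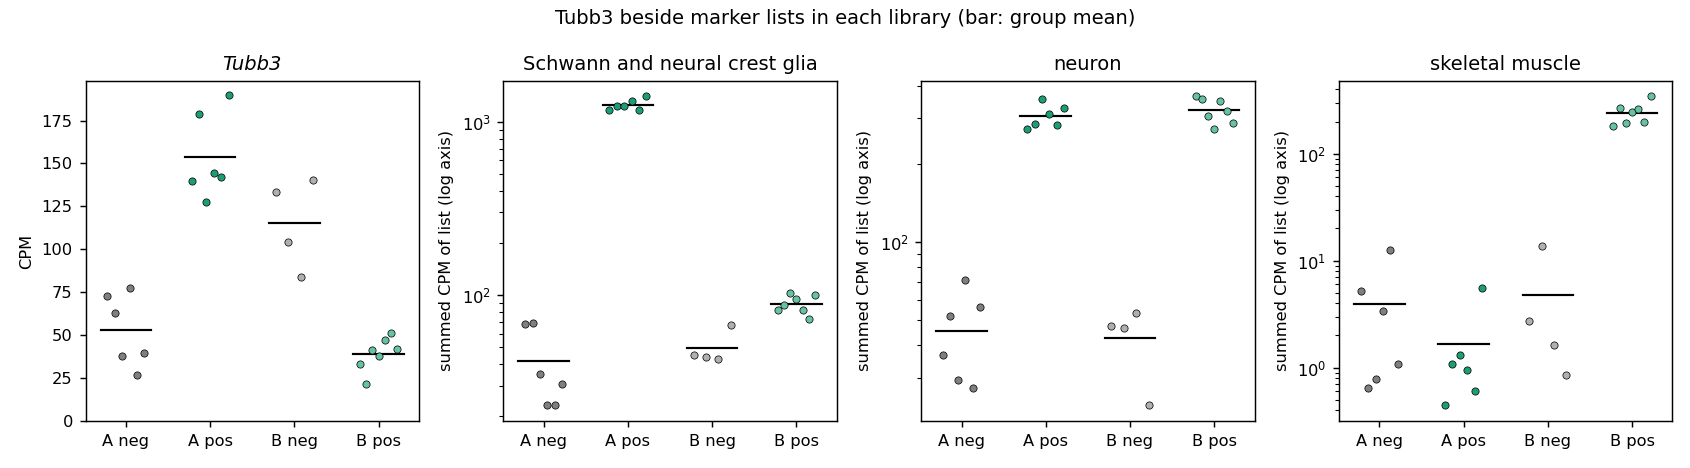
Tubb3 in CPM (linear axis from 0) beside the summed CPM of 3 marker lists (log axes) in each library, with bars at group means. The glial list is at 1173 CPM or more in batch A Sox2-positive libraries and at most 103 CPM elsewhere, and the muscle list is at 180 CPM or more only in batch B Sox2-positive libraries.

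Tuba1a was higher in Sox2-positive libraries of both batches, by more in batch A. It ranged there from 496 to 700 CPM in Sox2-negative libraries (median 585) and from 1103 to 1273 CPM in Sox2-positive libraries (median 1243). In batch B it lay at 664, 694, 761 and 668 CPM in Sox2-negative libraries and ranged from 894 to 968 CPM in Sox2-positive libraries (median 941). The groups were apart in both batches. The log2 difference was 1.02 (SE 0.09) for batch A and 0.50 (SE 0.08) for batch B, and the interaction in the fit over all 4 groups was -0.58 (SE 0.11).

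Tuba1b, the most abundant alpha isotype, was separate between populations in batch A and not in batch B. It ranged from 840 to 1272 CPM in Sox2-negative libraries of batch A (median 1075) and from 1305 to 1413 CPM in Sox2-positive libraries (median 1348). In batch B it lay at 1307, 1255, 1178 and 1105 CPM in Sox2-negative libraries and ranged from 1008 to 1209 CPM in Sox2-positive ones (median 1096). The log2 difference was 0.36 (SE 0.08) for batch A and -0.06 (SE 0.08) for batch B, where total-count scaling turned it to 0.02.

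Tuba1c, which lies near both on chromosome 15, ran in opposite directions. In batch A it ranged from 166 to 259 CPM in Sox2-negative libraries (median 213) and from 122 to 191 CPM in Sox2-positive libraries (median 154). In batch B it lay at 144, 128, 127 and 94.5 CPM in Sox2-negative libraries and ranged from 210 to 258 CPM in Sox2-positive libraries (median 233). The groups overlapped in batch A and were apart in batch B. The log2 difference was -0.46 (SE 0.14) for batch A and 0.97 (SE 0.13) for batch B. Summed over Tuba1a, Tuba1b and Tuba1c, which the counting may divide, the level was 1876 ± 145 and 2720 ± 77.3 CPM for batch A and 2031 ± 111 and 2269 ± 65.2 CPM for batch B (Sox2-negative, then Sox2-positive), without overlap in either batch.

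Tuba4a, an isotype of platelets and mature neurons whose gene does not encode the final tyrosine of other alpha-tubulins, stood out in 1 group. It ranged from 33.2 to 70.2 CPM in batch A Sox2-negative libraries (median 48.9) and from 10.4 to 19.7 CPM in batch A Sox2-positive libraries (median 11.9). In batch B it lay at 15.7, 19.4, 12.9 and 11.7 CPM in Sox2-negative libraries and ranged from 10.05 to 41.5 CPM in Sox2-positive libraries (median 19.0). The batch A Sox2-negative libraries lay above all libraries of batch A Sox2-positive and of batch B Sox2-negative cells. The log2 difference was -1.87 (SE 0.28) for batch A and 0.50 (SE 0.34) for batch B, where batch B Sox2-positive library 4 held the 41.5 CPM and the difference was 0.22 without it.

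Stk16, with which Tuba4a shares words, stood at 56.9 ± 14.4 and 103 ± 6.56 CPM for batch A and at 60.1 ± 3.38 and 86.0 ± 7.97 CPM for batch B (Sox2-negative, then Sox2-positive). The sum of both genes was 106 ± 13.5 and 116 ± 8.99 CPM in batch A, with overlapping groups, and 75.0 ± 1.31 and 106 ± 12.5 CPM in batch B, without overlap. Leukocyte markers, 6 genes, moved beside Tuba4a in Sox2-negative libraries, with sums of 832 to 997 CPM in batch A and 162 to 224 CPM in batch B, against 4.12 to 14.5 CPM in Sox2-positive libraries of both batches. Csf1r and Cd52 had no count in batch B Sox2-positive libraries. Endothelial markers, 5 genes, summed to 575 to 828 CPM in batch A Sox2-negative and 124 to 210 CPM in batch B Sox2-negative libraries, and to at most 5.82 CPM in Sox2-positive ones. The part of either list, or of Stk16, in the Tuba4a difference was not tested.

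**Figure D4:**
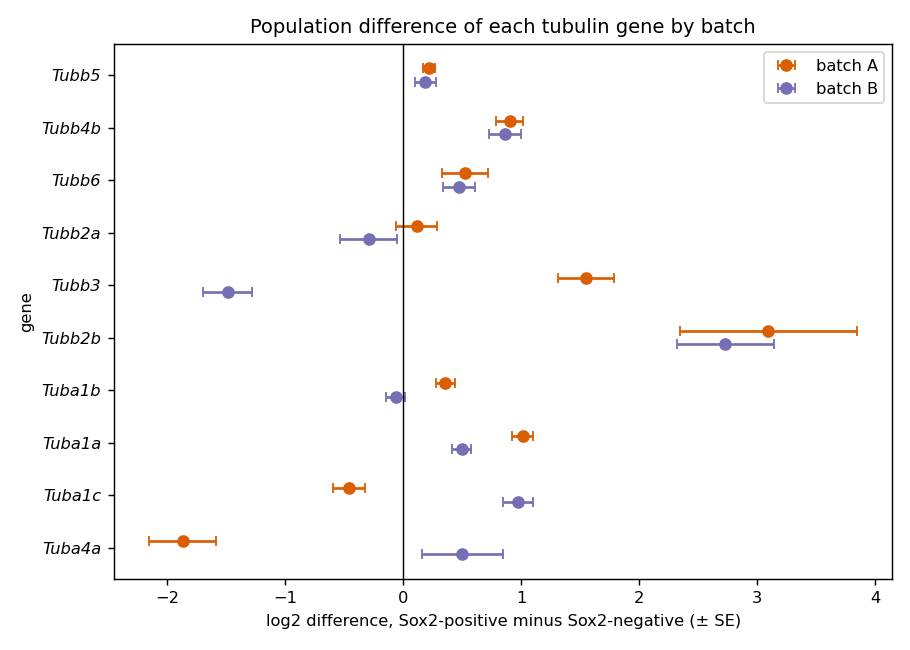
Log2 difference of each tubulin gene, Sox2-positive minus Sox2-negative, in batch A and batch B (points; bars are standard errors of the edgeR fit). Tubb4b, Tubb6 and Tubb2b have values close to each other in the batches, while Tubb3 (1.55 and -1.49), Tuba1c (-0.46 and 0.97) and Tuba4a (-1.87 and 0.50) lie far apart on opposite sides of 0.

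Between the batches, the fit across all genes passed 5 of the 10 members for the interaction, against 7.04% of all genes. Of these 2 were higher, against 2.82%, and 3 lower, against 4.22%. Within Sox2-positive cells it passed 5, against 10.4%, with 1 higher in batch B against 4.85% and 4 lower against 5.54%. Within Sox2-negative cells it passed 4, against 11.2%, with 1 higher against 5.85% and 3 lower against 5.35%. The groups of the batches did not overlap for 5 members within Sox2-positive cells, against 8.56% of all genes, and for 4 within Sox2-negative cells, against 8.87%. The same reservation holds, since the members were named with these values known. Within Sox2-positive cells, batch B was below batch A without overlap for Tubb3, Tubb5, Tuba1a and Tuba1b, and above it for Tuba1c. Within Sox2-negative cells it was below for Tubb5, Tuba1c and Tuba4a, and above for Tubb3.

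The remaining tubulin genes, which were not among the 10, were tested in the same fits. Of 10 such genes 5 passed the filter on low counts, and 4 of these were higher and none lower in Sox2-positive cells over both batches (edgeR adjusted p under 0.05), or 80% against 57.5% of all genes tested. Because a gene can pass the filter through the group where it is high, the count supports nothing by itself. Tubg1, the gamma-tubulin that nucleates microtubules, was at 16.4 ± 5.71 and 98.6 ± 22.2 CPM for batch A and at 26.2 ± 2.22 and 76.5 ± 9.31 CPM for batch B (Sox2-negative, then Sox2-positive). Its log2 difference was 2.09 (SE 0.18, edgeR adjusted p 2.48e-10) over both batches, and it was higher in Sox2-positive cells of each batch. The difference was smaller in batch B (interaction -1.05, edgeR adjusted p 0.0233).

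Tubb4a, the beta isotype of myelinating oligodendrocytes and neurons, was at 0.667 ± 1.27 and 18.0 ± 7.11 CPM for batch A and at 0.907 ± 1.60 and 3.92 ± 2.04 CPM for batch B, with a log2 difference of 3.42 (SE 0.80, edgeR adjusted p 6.49e-04). It passed in batch A (edgeR adjusted p 0.00118) and not in batch B (0.0733), and its interaction did not pass (0.293). Because its Sox2-negative means lay at levels of few counts, the reservation about the filter holds for its p-values too. Tubg2, the second gamma-tubulin, had a log2 difference of 2.30 (SE 0.52, edgeR adjusted p 4.72e-04), and Tube1, a centriolar tubulin, 1.17 (SE 0.48, edgeR adjusted p 0.0406). Tube1 passed in neither batch alone (edgeR adjusted p 0.103 and 0.205). The number higher was 3 in place of 4 when batch A Sox2-negative library 2 or 3, batch A Sox2-positive library 1, 3 or 4, batch B Sox2-negative library 3, or batch B Sox2-positive library 1 or 2 was left out. Tubd1, also of centrioles, had 1.35 (SE 0.78) and did not pass over both batches (edgeR adjusted p 0.139). It passed in batch A (log2 difference 3.09, edgeR adjusted p 0.0260) and not in batch B (-0.11, 0.908), and its interaction did not pass (0.155). Tuba3a, Tuba3b, Tuba8, Tubal3 and Tubb1 were too low to test. Tuba3b had no count in any library, and Tuba8 reached 12.8 CPM in a single batch A Sox2-negative library.

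**Figure D5:**
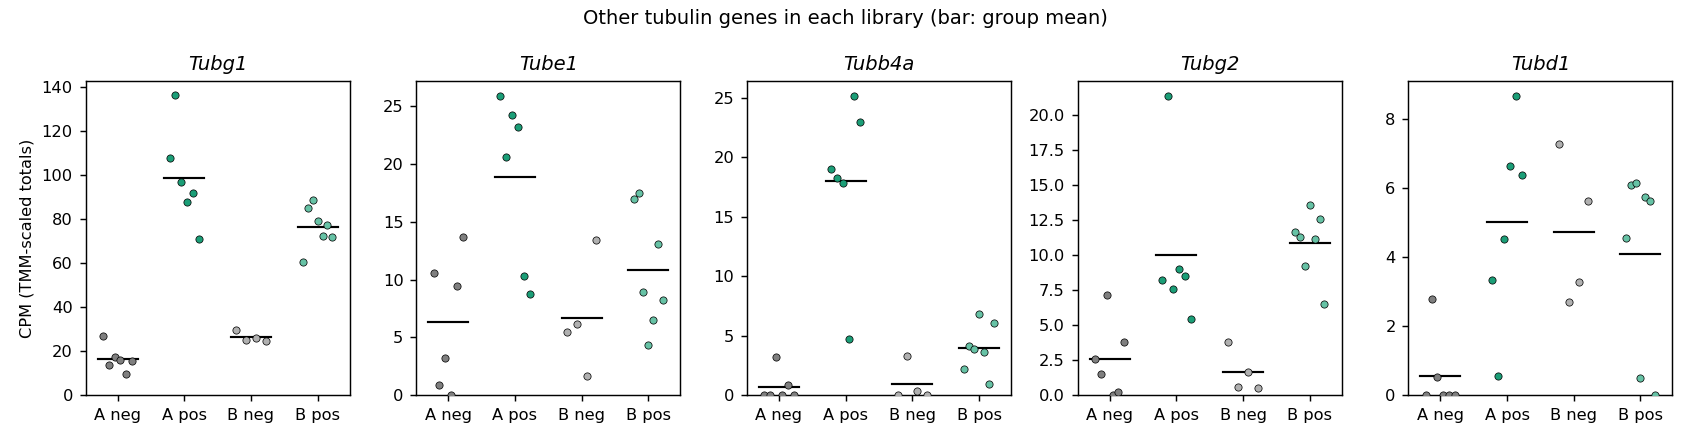
CPM of the 5 tested tubulin genes outside the 10 members in each library, on linear axes from 0, with bars at group means. Tubg1 is higher in Sox2-positive libraries of both batches. Tubb4a has its highest mean in batch A Sox2-positive libraries, at 18.0 CPM. Library 4 of that group, at 4.74 CPM, lies within the batch B Sox2-positive range (0.908 to 6.79 CPM).

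Of the 23 genes of the CCT chaperonin, prefoldin and the tubulin cofactors, 8 were higher, 8 lower and 7 not called in Sox2-positive cells over both batches (edgeR; 69.6% called, against 57.5% of all genes), with a median log2 difference of 0.15 against -0.12 over all genes. Cct7 (log2 difference 1.28, SE 0.09, adjusted p 1.50e-12) and Cct8 (1.09, SE 0.10, 1.28e-09), subunits of the chaperonin that folds tubulin and actin, and Vbp1 (1.19, SE 0.15, 2.97e-07), a prefoldin subunit, were highest by edgeR. Cct2, a further chaperonin subunit, was lower (-0.63, SE 0.12, edgeR adjusted p 8.37e-05), as were the cofactor genes Tbcb (-0.49) and Tbcel (-1.32). In batch A alone 8 were higher and 3 lower (47.8% called, against 43.4% of all genes). In batch B alone 10 were higher and 5 lower (65.2% called, against 54.7%). Over both batches, total-count scaling gave 11 folding genes higher and 5 lower, so the even split depends on the scaling. The number lower was also 5 when batch A Sox2-positive library 2, 5 or 6, batch B Sox2-negative library 1, or batch B Sox2-positive library 3, 5, 6 or 7 was left out.

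Enzymes that modify tubulin tails were listed as 24 genes, of which 20 were tested, 7 were higher and 5 lower (edgeR, 60% called against 57.5% of all genes, median 0.18). Ttll1, of the enzyme that adds glutamate chains, was at 4.41 ± 5.89 and 68.7 ± 17.4 CPM for batch A and at 8.28 ± 2.76 and 45.5 ± 5.62 CPM for batch B (log2 difference 3.22, SE 0.42, edgeR adjusted p 2.98e-07). Agbl5, a deglutamylase, was also higher (1.39, SE 0.33, edgeR adjusted p 8.11e-04). Ttll10, of the glycine-adding branch, was higher with means of 0.0862 and 6.38 CPM in batch A and 0.807 and 13.4 CPM in batch B (edgeR adjusted p 1.02e-05). Lower were Ttll3, which starts glycine chains (-2.56, SE 0.60), and Agtpbp1, a deglutamylase (-1.86, SE 0.53, edgeR adjusted p 6.86e-04 and 0.00421). Vash1, which removes the final tyrosine of alpha-tubulin, was lower too, with 3.87 and 0.186 CPM in batch A and 1.41 CPM and no count in batch B (edgeR adjusted p 1.13e-04). Mean levels of Ttll10 in Sox2-negative and of Vash1 in Sox2-positive libraries were within or below what 3 counts can show (0.314 to 1.30 CPM). Each can pass the filter through the other population, so its p-value supports nothing by itself.

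Of 19 nucleation genes 7 were higher and 2 lower (edgeR, 47.4% called against 57.5% of all genes, median -0.09). Tubgcp2, a core subunit of the gamma-tubulin ring complex, was higher (1.56, SE 0.18, edgeR adjusted p 2.75e-08), as were the augmin genes Haus1 (1.02) and Haus2 (1.08). Tubgcp6 (-1.60, SE 0.26, edgeR adjusted p 7.90e-06) and Tubgcp5 (-0.72, SE 0.24, 0.0118), further ring complex subunits, were lower. Tubgcp5 passed in neither batch alone (edgeR adjusted p 0.0882 and 0.108). Only 1 nucleation gene was lower when batch A Sox2-negative library 6 or batch B Sox2-negative library 4 was left out.

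Of 18 microtubule-associated protein genes 4 were higher and 6 lower (edgeR, 55.6% called against 57.5% of all genes, median -0.82). Map7, a recruiter of kinesin-1 (1.78, SE 0.47), Map2, best known from dendrites (1.47, SE 0.33), and Mid1ip1 (0.60, SE 0.19) were higher. Map1b, of growing axons, was lower (-2.37, SE 0.22, edgeR adjusted p 9.65e-10), as was Dclk2 (-1.96, SE 0.58). Mapt, encoding tau, was lower with 6.83 and 0.0335 CPM in batch A and 5.89 and 0.729 CPM in batch B (edgeR adjusted p 2.02e-04). It can have passed the filter through Sox2-negative libraries alone, so this p-value supports nothing by itself.

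Of 31 genes for microtubule ends, severing and stathmins, 27 were tested, 8 were higher and 9 lower (edgeR, 63% called against 57.5% of all genes, median 0.12). Slain1, a plus-end protein (3.30, SE 0.65), Camsap3, which anchors minus ends in epithelial cells (1.82, SE 0.58), and Fignl1 (1.69, SE 0.33) were higher. Tacc1 (-2.64, SE 0.12, edgeR adjusted p 3.65e-16), the neuronal stathmin Stmn2 (-2.35, SE 0.66) and the plus-end protein Clip1 (-1.33, SE 0.28) were lower. Of 15 mitotic genes 9 were higher and 2 lower (edgeR, 73.3% called against 57.5% of all genes, median 0.48). Ccnb1, the mitotic cyclin, was highest (1.49, SE 0.17, edgeR adjusted p 2.64e-08), followed by Nusap1 (0.94) and Plk1 (0.94). Those lower were Top2a (-0.63, SE 0.14) and the proliferation marker Mki67 (-0.37, SE 0.11). Mki67 passed in neither batch alone (edgeR adjusted p 0.0787 and 0.0988). Of the genes named from the lists, Tubg2, Cct2, Tbcb, Agtpbp1, Map7, Dclk2 and Clip1 passed in batch B and not in batch A. Ttll3, Mid1ip1 and Camsap3 passed in batch A and not in batch B. Ttll10, Mapt and Stmn2 were tested within 1 batch only, and Vash1 within neither. The reservation about the filter also holds for Stmn2 and Slain1, which had few counts in 1 population.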

How the data were processed

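Estimated counts per gene were deposited by the authors as 1 table without normalization. FastQC, Trimmomatic, Salmon and mm10 are named, without their order or role, in the submitters' processing notes. Versions, parameters and the step from transcripts to genes are not given in the sources used here. Counts were rounded to whole numbers. Symbols came from GENCODE M21, matching 99.5% of 54347 identifiers without version, and sequences and lengths from the same release. No per-sample column was left unused.

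Genes were tested with edgeR 4.0.16 (R 4.3.3; TMM scaling, filterByExpr with a minimum count of 10, quasi-likelihood F test, two-sided) with Benjamini-Hochberg adjustment over all genes tested. The population comparison had batch as covariate over 23 libraries and was repeated within batches. A model of 4 group means gave the interaction and the batch differences. SE was the absolute log2 difference divided by the square root of F. Alternatives were DESeq2 1.42.0, RLE and total-count scaling, no filter, a mean of 10 counts, a replicate block, leaving out each library, and leaving out batch B libraries 1 and 2. The members and lists were chosen with earlier results of these data known. Named genes were the members, the other tubulin genes, and in each list the 3 highest and 3 lowest called genes with a mean of at least 1 CPM. Likeness used genes of at least 10 CPM. Besides the 7 lists, 12 marker lists were summed, and those of melanocytes, ameloblasts, odontoblasts and the types named in the results are reported. In simulated counts over 16661 genes, 41.5% of 200 genes with a log2 change of 1 were recovered for the population difference over both batches.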

Additional observations from a re-analysis of the deposited data

Results flagged for a closer look

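Within groups, 7 of 72 sets of values had a library far from the others, a rule that chance meets in about 1 in 20 sets of normally distributed values. That rate need not hold for the flagged Tubb4a and Tubd1 sets of Sox2-negative cells, where several libraries had no count. Tubb2b was at 8.87 CPM in batch A Sox2-negative library 6, against at most 1.92 CPM in the other 5. Tuba4a was at 41.5 CPM in batch B Sox2-positive library 4, against 10.05 to 19.6 CPM in the other 6. Tubb4a was at 3.16 CPM in batch A Sox2-negative library 3, at 4.74 CPM in batch A Sox2-positive library 4 (17.9 to 25.2 CPM in the others) and at 3.30 CPM in batch B Sox2-negative library 2. Tubg2 was at 21.3 CPM in batch A Sox2-positive library 2, against at most 9.01 CPM in the others, and Tubd1 at 2.78 CPM in batch A Sox2-negative library 2, against at most 0.527 CPM.

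The population difference of Tubb3 was opposite in the batches with no overlap of libraries in either. Its log2 interaction of -3.10 is given without a p-value because the gene was named with its values known. Among the list genes named in the results, the population difference differed between batches for Tubg1 (log2 interaction -1.05, edgeR adjusted p 0.0233, with 2.60 for batch A and 1.62 for batch B). It also differed for Cct2 (-0.78, edgeR adjusted p 0.0122, -0.26 and -0.97) and Cct8 (-0.64, edgeR adjusted p 0.0123, 1.40 and 0.82). Of the list genes not named there, 6 also passed for the interaction by edgeR: Svbp (1.13, adjusted p 0.00154), Cct3 (-0.67, 0.0193), Map6 (-5.86, 0.0243), Dcx (5.47, 0.0252), Katna1 (-1.17, 0.0343) and Map7d1 (-0.90, 0.0385). These 6 fell outside the rule for named genes and were picked out after their values were seen. The share of tested genes passing was 20% for the other tubulin, 13% for the folding and 5% for the modifying genes. It was 16.7% for the microtubule-associated and 3.7% for the microtubule end genes, and 0% for the nucleation and mitotic genes. Over all genes tested 7.04% passed for the interaction, so nothing is read from these counts.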

How the results depend on the processing

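Of the 10 members, the number passing ranged over the alternatives from 5 to 7 for the population difference over both batches (6 in the fit described), from 8 to 9 in batch A (9), from 5 to 7 in batch B (6), from 4 to 5 for the interaction (5), from 4 to 6 between batches in Sox2-positive cells (5) and from 3 to 5 in Sox2-negative cells (4). The cause of the following changes was not tested, beyond fewer libraries where some were left out. Without batch B libraries 1 and 2, the genes called fell from 1210 to 481 for the interaction, from 1785 to 1159 between batches in Sox2-positive cells and from 1924 to 754 in Sox2-negative cells. Total-count scaling gave 661 genes higher and 1388 lower in batch B within Sox2-negative cells, against 1005 and 919, and 666 higher and 1214 lower within Sox2-positive cells, against 833 and 952. It moved the median of all genes by over 0.1 in 2 comparisons, from -0.12 to 0.003 for the populations over both batches and from -0.004 to -0.15 for the batches within Sox2-negative cells. Same-numbered libraries showed little shared deviation from their group means (correlations from -0.0248 to 0.0620). Because the 2 populations are different cells, this cannot show whether the numbers pair libraries, and the labels do not say. With the replicate block, 557 genes were called for the interaction, 5 members passed over both batches (5 higher and 0 lower, against 5 and 1), 8 in batch A, 5 in batch B and 5 for the interaction. The log2 difference of Tubb3 over both batches was 0.32 with the block and 0.54 without batch B libraries 1 and 2, and ranged from -0.16 to 0.23 when single libraries were left out, while its values within batches kept their sign in all fits that were run. With total-count scaling or no filter, 1 mitotic gene was lower in place of 2. With no filter, 5 folding genes were lower in place of 8 and 1 other tubulin gene was lower. The other tubulin genes called higher numbered 3 in place of 4 with the block and without batch B libraries 1 and 2. With the block, 5 folding, 3 modifying and 1 nucleation genes were lower, in place of 8, 5 and 2. With depths down to 2305778 counts, genes at a few CPM (Tubb2b in Sox2-negative cells, Tubd1, Tuba8) rest on few counts.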

Other observations

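Marker lists not set beside a tubulin gene in the results had the following levels, and their part in any tubulin difference was not tested. Ameloblast markers, 6 genes of enamel secretion such as Amelx, summed to 747 to 940 CPM in batch A Sox2-negative, 293 to 349 CPM in batch A Sox2-positive, 596 to 712 CPM in batch B Sox2-negative and 9.80 to 17.3 CPM in batch B Sox2-positive libraries. Odontoblast markers, 3 genes, summed to 108 to 229 CPM and 109 to 132 CPM in Sox2-negative libraries of batches A and B, and to at most 15.4 CPM in Sox2-positive ones. Melanocyte markers, 6 genes, summed to 33.9 to 84.8, 36.8 to 57.8, 65.4 to 118 and 39.6 to 90.4 CPM in the 4 groups in the same order, with Mlana at no count in any library.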
